A study of Drosophila melanogaster with 4 samples.

Results

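The genes described here are antisense noncoding RNAs, which are transcribed from the DNA strand opposite to another gene and overlap it. They were chosen by name: every gene of the authors' deposited table whose symbol begins with asRNA: was taken, which gave 223 of the 12116 listed genes. Whole wandering larvae, at the third instar stage, of 2 Drosophila melanogaster stocks were compared. Oregon R+, a wild-type stock, served as control, and the mutant stock was homozygous for hsromega[66], an allele of the long noncoding RNA gene Hsromega, and is called hsromega66 below. Each genotype was sequenced as 2 ribosome-depleted total RNA libraries of 5 larvae each, and the values analysed were the authors' pooled values, 1 per transcript and genotype. The labels did not state the sex of the larvae, or whether the 2 stocks share a genetic background. The allele and other differences between the stocks therefore cannot be told apart. Levels are FPKM, fragment numbers normalised for transcript length and library size, and were added up over all transcripts listed for a gene.

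Antisense transcripts can act through the act of transcription, through base pairing with the sense RNA, or not at all, and for most fly antisense RNAs no function is known. In flies, double-stranded RNA formed by overlapping sense and antisense transcripts can be cut by the nuclease Dicer-2 into endogenous small interfering RNAs, which are loaded onto Argonaute 2. Adar, the editing enzyme that changes adenosine to inosine, also acts on such duplexes. An antisense RNA and its overlapping gene share sequence on opposite strands, so reads can be given to the right gene only when the strand of each read is kept and used. The library kit kept strand, per the labels' protocols. Whether counting used it is not stated there, so reads of an antisense RNA and of the gene it overlaps cannot be told apart in the values below.

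Of the 223 antisense RNAs, 3 rose and 0 fell in hsromega66 larvae by the q value of at most 0.05 that the authors' Cuffdiff comparison gave to at least 1 transcript. The 3 rises were 1.35% of the antisense RNAs, a share near the 1.4% of all 12116 listed genes that rose by the same rule. The rule gives genes with more listed transcripts more chances to be called. The antisense RNAs had 250 listed transcripts for 223 genes, beside 21529 for all 12116 genes. Shares of genes called by q or p, here and below, are therefore not on an equal footing. Of all listed genes, 0.908% fell. At an unadjusted Cuffdiff p of at most 0.05, 7 antisense RNAs were higher (3.14%) and 3 lower (1.35%), beside 4.67% and 3.2% of all listed genes. A difference of 1 or more on the log2(FPKM + 1) scale was found for 11 antisense RNAs upward (4.93%) and 5 downward (2.24%), beside 3.35% and 2.58% of all listed genes. The values are pooled, 1 per genotype, so they carry no standard deviation, and every p and q below is that of the authors' deposited table. Unless given per transcript, the p and q of a gene with several listed transcripts are the lowest among them. They do not belong to the summed FPKM beside which they stand.

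The mutated gene and the tissue were checked first. Hsromega was listed at 232 FPKM in control larvae and 0.290 FPKM in hsromega66 larvae, with q = 0.998 by the authors' deposited table. Markers of fat body (4 of 4), salivary gland (3 of 3), muscle (4 of 4), gut (3 of 3), testis (13 of 13), haemocytes (3 of 3) and neurons (3 of 4) were listed, none of them at 0. The male dosage compensation RNAs lncRNA:roX1 and lncRNA:roX2 summed to 341 FPKM in control larvae and 345 FPKM in hsromega66 larvae, and 13 testis markers to 323 and 303 FPKM. Fat body markers summed to 25755 and 23783 FPKM, those of the salivary gland to 38405 and 37902 FPKM (most of it Sgs7), and those of neurons to 33.9 and 46.0 FPKM. Of the neuron markers, Syt1 stood at 22.8 and 35.8 FPKM (p = 0.0051, q = 0.232 by the authors' deposited table). The marker elav was lower in hsromega66, at 8.11 and 6.86 FPKM, and nSyb stood at 2.99 and 3.38 FPKM. The salivary glue gene Sgs3 alone stood at 863 and 416 FPKM (p = 0.00115, q = 0.0783 by the authors' deposited table). The 4 muscle markers summed to 4606 and 3163 FPKM and the 3 haemocyte markers to 136 and 70.0 FPKM. The 3 gut markers summed to 1931 and 1187 FPKM. Of these, the trypsin gene alphaTry and the amylase gene Amy-p rose, while the protease gene Jon99Ciii stood at 1760.1 and 730.03 FPKM (p = 0.00075, q = 0.0563 by the authors' deposited table). The part of tissue composition in the results below was not tested. In whole larvae, fewer cells of a type and less RNA per cell cannot be told apart.

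The largest rise was that of asRNA:CR45629, an RNA of 3 exon blocks on the plus strand of X, 10217627 to 10219303 (dm6). It was listed at 8.15 FPKM in control larvae and 341 FPKM in hsromega66 larvae, at a ratio of 41.8, and the log2(FPKM + 1) difference was 5.22. Most of this level belonged to 1 of its 3 listed transcripts, at 8.15 and 337 FPKM with q = 0.00546 by the authors' deposited table. The other transcripts were listed at 0.000125 and 2.37 FPKM and at 0 and 1.78 FPKM, and neither passed the threshold. The protein-coding gene CG15308 lies within its span on the minus strand (X, 10217913 to 10219139), with 454 exonic bases in common. CG15308 was listed at 0.000114 FPKM in control larvae and 68.5 FPKM in hsromega66 larvae, the same direction as the antisense RNA, but with p = 0.243 and q = 0.998 by the authors' deposited table. Both genes of the locus were thus near 0 or low in control and high in hsromega66. The antisense RNA was listed at the higher level in both genotypes.

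The second rise was asRNA:CR44703, a single-exon RNA on the plus strand of 2R, 21068260 to 21069445. Its level was 22.1 FPKM in control larvae and 73.1 FPKM in hsromega66 larvae, at a ratio of 3.31, with q = 0.0142 by the authors' deposited table. It overlaps Cht9, a gene of the chitinase family, head to head, and 75.3% of its exonic bases lie in exons of Cht9. Cht9 was listed at 12.8 and 37.0 FPKM, a ratio of 2.89, with p = 0.0111 and q = 0.421 by the authors' deposited table. A further antisense RNA, asRNA:CR44704, begins just beyond the same locus (2R, 21070749 to 21071895) and lies inside CG10527. It was abundant in both genotypes, at 155 and 186 FPKM (q = 0.998 by the authors' deposited table), while CG10527 was listed at 165 and 154 FPKM. Of these neighbouring antisense RNAs, the authors' comparison thus called the one over Cht9 and not the one over CG10527, and the difference between them was not tested.

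The third rise was asRNA:CR44155, a low RNA of 2 exon blocks on the minus strand of 3R, 4646433 to 4648242. It was listed at 1.13 FPKM in control larvae and 6.17 FPKM in hsromega66 larvae, at a ratio of 5.46, with q = 0.00546 by the authors' deposited table. It lies inside rpk (ripped pocket), which encodes a subunit of the degenerin and epithelial sodium channel family, and 87.8% of its exonic bases lie in rpk exons. The sense gene was lower than its antisense RNA in both genotypes, at 0.436 and 1.68 FPKM, with p = 0.0120 and q = 0.449 by the authors' deposited table. At all 3 loci with a called antisense RNA, the opposite-strand gene was therefore higher in hsromega66 too, without passing the threshold.

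**Figure D1:**
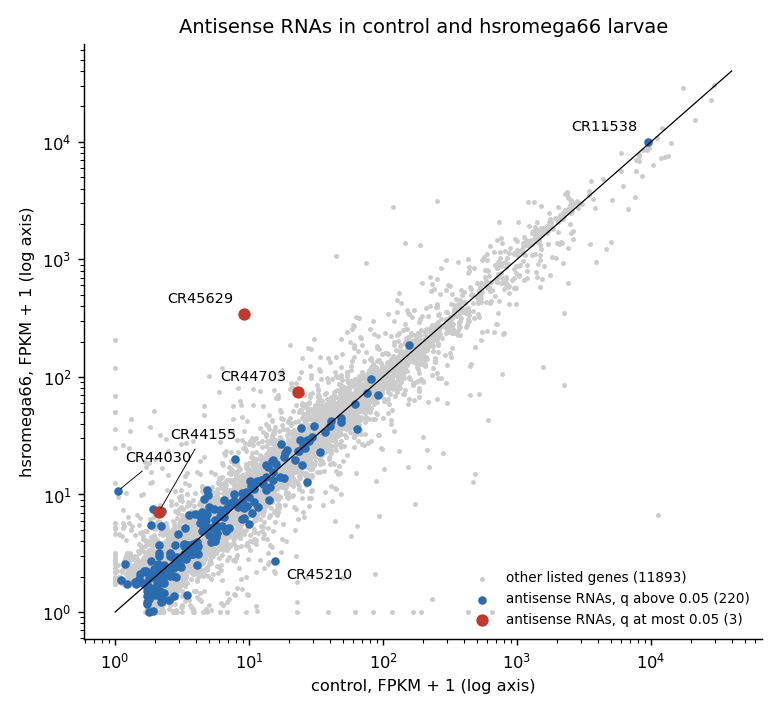
Level of each listed gene in control (x axis) and hsromega66 (y axis), as FPKM + 1 on log axes, 1 point per gene, with the antisense RNAs in blue and the 3 called ones in red. The line marks equal levels, asRNA:CR45629 lies far above it (8.15 and 341 FPKM), and asRNA:CR11538 stands apart at the top right, near the line (9495 and 10013 FPKM).

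Further antisense RNAs were listed higher in hsromega66 without passing the threshold. The largest such difference was that of asRNA:CR44030 on chromosome 4 (959675 to 962692, plus strand), listed at 0.0476 FPKM in control larvae and 9.71 FPKM in hsromega66 larvae. Its 2 listed transcripts were both near 0 in control (0.0160 and 0.0316 FPKM) and at 5.25 and 4.46 FPKM in hsromega66. Their p-values by the authors' deposited table were 0.230 and 0.248, so the comparison did not call even this difference. It lies opposite to fuss, a gene of the Ski and Sno family of transcriptional cofactors, whose level was not analysed here.

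The antisense RNA asRNA:CR44108 lies inside Shmt, which encodes serine hydroxymethyltransferase of the folate cycle. Its level was 0.906 and 6.55 FPKM, and that of Shmt was far higher, at 188 and 312 FPKM (p = 0.0185, q = 0.603 by the authors' deposited table). At 223 exonic bases it was the shortest of the antisense RNAs listed, and its own p was 0.336. A similarly short one, asRNA:CR45000 (227 bases), lies inside Lcch3, a subunit of a GABA-gated chloride channel. It was listed at 0.842 and 4.49 FPKM with p = 0.464 by the authors' deposited table, whereas Lcch3 stood at 1.00 and 1.03 FPKM. The large ratios of these short, low RNAs did not reach an unadjusted p of 0.05.

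In other pairs both genes were listed higher. The antisense RNA asRNA:CR43730 contains the span of JhI-26, a juvenile hormone inducible gene, and was listed at 6.82 and 19.0 FPKM (p = 0.0342, q = 0.894 by the authors' deposited table). JhI-26 stood at 5.401 and 16.7 FPKM (p = 0.0192, q = 0.617 by the authors' deposited table). The 2 ratios, 2.79 and 3.09, were alike, although a second overlapped gene, CG42372, which shares 22 exonic bases, stood at 17.9 and 20.1 FPKM. Inside Gal, the beta-galactosidase gene, asRNA:CR43866 was listed at 3.82 and 10.01 FPKM, and Gal itself at 6.05 and 16.3 FPKM. The ratios of this pair were 2.62 and 2.69, and the lowest p-values by the authors' deposited table were 0.0602 and 0.0043. Also listed higher were asRNA:CR44386 (1.23 and 6.27 FPKM, p = 0.009, q = 0.356 by the authors' deposited table), beside CG43107 at 0.783 and 1.39 FPKM, and asRNA:CR45538 (1.19 and 4.37 FPKM). The latter lies opposite to CG10970, whose level was not analysed here.

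No antisense RNA fell by the authors' q value, and the 10 largest differences downward among those that reached 1 FPKM are described here. The first was that of asRNA:CR45210, on the plus strand of 3L, 19260040 to 19260895, listed at 14.7 FPKM in control larvae and 1.71 FPKM in hsromega66 larvae with p = 0.270 by the authors' deposited table. Its opposite-strand gene nes (nessy), a membrane-bound acyltransferase gene, stood at 25.5 and 19.996 FPKM, a ratio of control over hsromega66 of 1.28, against 8.60 for the antisense RNA. In this pair the antisense RNA was thus much lower in hsromega66 with only a small difference in the sense gene.

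The gene CG1208 fell from 93.1 to 5.54 FPKM with q = 0.00546 by the authors' deposited table, and its antisense RNA was listed lower too. It was the only opposite-strand gene of an antisense RNA that passed the threshold: of 216 such genes listed, 0 rose and 1 fell (0.463%), beside 1.4% and 0.908% of all listed genes. At an unadjusted Cuffdiff p of 0.05 the counts were 11 higher (5.09%) and 3 lower (1.39%), beside 4.67% and 3.2%. The antisense RNA inside it, asRNA:CR45192, was listed at 2.43 and 0.391 FPKM with p = 0.334 by the authors' deposited table. Both were listed lower in hsromega66, by ratios of 16.8 for the gene and 6.21 for the antisense RNA.

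Among the others, 2 passed an unadjusted p of 0.05. The antisense RNA asRNA:CR46136 lies inside Pi4KIIalpha, a phosphatidylinositol 4-kinase gene, and was listed at 26.2 and 11.9 FPKM (p = 0.0431, q = 0.998 by the authors' deposited table). Pi4KIIalpha stood at 11.7 and 10.3 FPKM, so the antisense RNA was listed at the higher level in both genotypes, by 2.23 and 1.15 times. The second, asRNA:CR44367, was listed at 1.75 and 0.360 FPKM (p = 0.0197, q = 0.630 by the authors' deposited table), and its opposite gene CG6553 was not analysed here. At CG13893 the antisense RNA and the gene were both listed at high levels, and lower in hsromega66. There asRNA:CR45807 was listed at 63.5 and 35.2 FPKM (p = 0.0993 by the authors' deposited table) and CG13893 at 49.9 and 24.7 FPKM (p = 0.0346, q = 0.897 by the authors' deposited table).

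The remaining low ratios belonged to RNAs that were low, or to a small difference. The RNA asRNA:CR44866, which overlaps the 5' end of a cell cycle gene, CycE (cyclin E), was listed at 1.55 and 0.266 FPKM, and CycE at 8.35 and 6.07 FPKM. Opposite to the septin gene Sep2, asRNA:CR46044 was listed at 1.19 and 0.211 FPKM, whereas Sep2 was nearly equal at 63.0 and 63.1 FPKM. Inside lola, which encodes a family of BTB zinc finger transcription factors, asRNA:CR45135 stood at 1.24 and 0.253 FPKM beside 116 and 110 FPKM of lola. The RNA asRNA:CR45268 was listed at 9.06 and 4.61 FPKM, beside CG43325 at 0.804 and 0.242 FPKM and CG43326 at 21.7 and 16.8 FPKM. The last, asRNA:CR45182 inside CG40178, was listed at 1.26 and 0.369 FPKM. Lowest p-values for these 5 by the authors' deposited table lay between 0.0880 and 0.604.

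**Figure D2:**
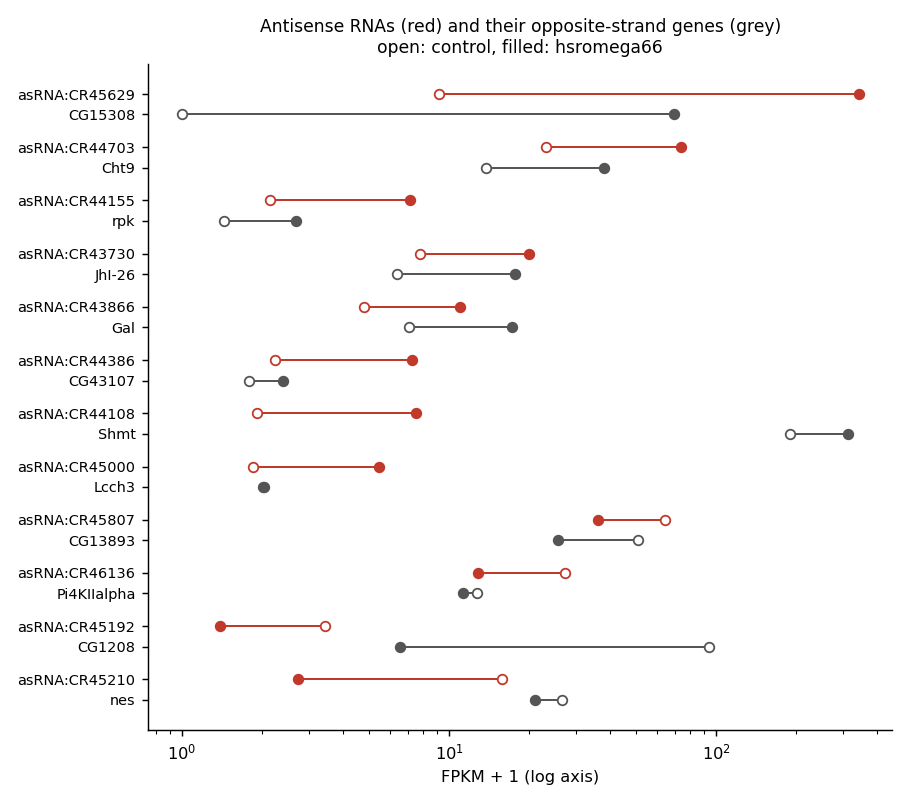
Levels of 12 antisense RNAs (red) and of the listed gene with which each shares most exonic bases (grey), as FPKM + 1 on a log axis, open circles for control and filled circles for hsromega66. The pairs down to Lcch3 have the filled circle to the right and the last 4 to the left, for both genes of each pair, and Lcch3 (1.00 and 1.03 FPKM) hardly moves. The 12 were picked by hand among the largest differences, and some pairs were left out, such as asRNA:CR46044 with Sep2 (63.0 and 63.1 FPKM). Their shared direction therefore does not describe all pairs.

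The antisense RNA listed highest by far was asRNA:CR11538, on the minus strand of 3L, 12129103 to 12131488. It was listed at 9495 FPKM in control larvae and 10013 FPKM in hsromega66 larvae, with q = 0.998 by the authors' deposited table, and this made up most of the summed level of all antisense RNAs (11477 and 12415 FPKM). It overlaps Lsp2 head to head, and 87.8% of its 2386 exonic bases lie in exons of that gene. Lsp2 encodes a storage hexamerin of the larval serum made by the fat body. The sense gene was listed at 723 and 731 FPKM, so the antisense RNA exceeded it 13.1 times in control and 13.7 times in hsromega66. The related serum protein genes Lsp1alpha and Lsp1beta were listed at 8187 and 6915 FPKM and at 8671 and 8559 FPKM. The fat body gene Fbp1 stood at 8174 and 7578 FPKM. How reads of this locus were divided between the strands was not tested.

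The other highly abundant antisense RNAs differed little between the genotypes, apart from the called ones and asRNA:CR45807. The RNA asRNA:CR46262, inside CG3625, was listed at 91.3 and 69.5 FPKM. Inside CG13255, asRNA:CR45943 stood at 80.3 and 94.8 FPKM. At the 3' end of AspRS, which encodes aspartyl-tRNA synthetase, asRNA:CR45141 was listed at 75.05 and 72.6 FPKM and the gene itself at 28.5 and 29.2 FPKM. Inside Nap1, a histone chaperone gene, asRNA:CR45926 stood at 61.0 and 58.3 FPKM and Nap1 at 52.0 and 50.1 FPKM. Opposite to dUTPase, whose level was not analysed here, asRNA:CR45778 was listed at 47.3 and 43.9 FPKM. Their p-values by the authors' deposited table lay between 0.444 and 0.921.

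The only antisense RNA within 100 kb of Hsromega was asRNA:CR45798, 28333 bp away, inside the gene of the secretory pathway GTPase Rab1. It was listed at 1.74 and 1.51 FPKM (p = 0.910 by the authors' deposited table), and Rab1 at 156 and 150.1 FPKM. Neither of these 2 genes differed by more than a ratio of 1.16.

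As a group, the antisense RNAs were lower than protein-coding genes and higher than genes with the lncRNA: prefix. Their median level was 3.15 FPKM in control (quartiles 1.24 and 9.23) and 3.94 FPKM in hsromega66 (quartiles 1.31 and 9.57). The 476 genes with the lncRNA: prefix had medians of 1.38 and 1.197 FPKM, and 11181 protein-coding genes had 9.56 and 9.67 FPKM. Of the antisense RNAs, 201 reached 1 FPKM in at least 1 genotype, 58 reached 10 FPKM and 9 reached 50 FPKM. None was listed at 0 as a gene in either genotype. Levels are those of listed genes, which all reached at least 0.716 FPKM in 1 genotype among the antisense RNAs, so lower antisense RNAs are not part of these medians.

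The median log2(FPKM + 1) difference of the 223 antisense RNAs was -0.021, beside -0.013 over all listed genes and -0.093 over genes with the lncRNA: prefix. Of the antisense RNAs, 108 lay above 0 and 115 below, and 76.7% differed by less than 0.5, beside 82.0% of all listed genes and 64.1% of those with the lncRNA: prefix. The spread depended on level. Below a mean of 1 FPKM the median absolute difference was 0.35 over 43 antisense RNAs, beside 0.33 over all listed genes of that level. From 1 to 5 FPKM it was 0.23 over 91, beside 0.22, and from 5 to 20 FPKM it was 0.25 over 60, beside 0.17. At 20 FPKM or more it was 0.12 over 29 antisense RNAs, beside 0.20 over 3550 genes. By the same q rule, 0 of the 476 genes with the lncRNA: prefix rose and 6 fell (1.26%), beside 1.4% and 0.908% of all listed genes. At an unadjusted Cuffdiff p of 0.05 the counts were 9 higher (1.89%) and 18 lower (3.78%), beside 4.67% and 3.2%. Whether the 2 groups of noncoding genes differ in this was not tested.

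**Figure D3:**
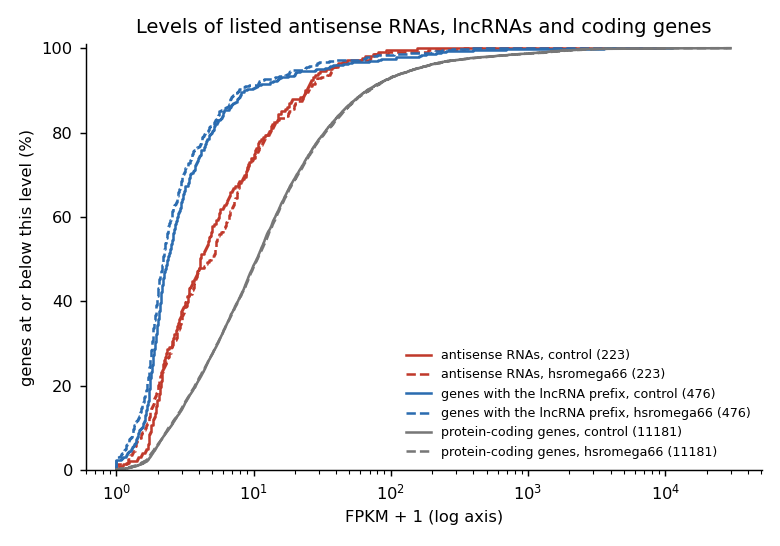
Share of genes (%) at or below each level (FPKM + 1, log axis) for 223 antisense RNAs, 476 genes with the lncRNA: prefix and 11181 protein-coding genes, solid lines for control and dashed lines for hsromega66. The antisense curve lies between the other groups, with medians of 3.15 and 3.94 FPKM against 1.38 and 1.197 FPKM for lncRNAs and 9.56 and 9.67 FPKM for coding genes.

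In the authors' own classes, which ask for an unadjusted p of at most 0.05 and an absolute log2 ratio of at least 2, the 250 transcripts of the antisense RNAs held 4 classed as upregulated (1.6%, beside 0.622% of all 21529 transcripts) and 1 as downregulated (0.4%, beside 0.344%). Of all transcripts, 97.3% were in the authors' class of baseline expression, beside 243 of the 250 (97.2%). The upregulated ones belonged to asRNA:CR45629, asRNA:CR44155, asRNA:CR44386 and asRNA:CR46047 (0.193 and 1.57 FPKM), and the downregulated one to asRNA:CR44367. The called asRNA:CR44703 was not among them, as its ratio was 3.31. A single transcript was listed only in control (asRNA:CR43460, 0.736 FPKM; 0.4%, beside 0.934% of all) and 1 only in hsromega66 (a minor one of asRNA:CR45629; 0.4%, beside 0.762%).

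In some antisense RNAs with several listed transcripts, these differed in opposite directions. In asRNA:CR44031 on chromosome 4, the main transcript was listed at 22.8 and 12.9 FPKM (p = 0.0497 by the authors' deposited table), while the minor one stood at 0.899 and 3.76 FPKM. In asRNA:ASTR, the main transcript stood at 7.79 and 6.74 FPKM and a minor one at 0.00131 and 1.36 FPKM. None of these transcripts had a q below 0.998 by the authors' deposited table, and 202 of the 223 antisense RNAs had 1 listed transcript only.

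The antisense RNAs were next described by what they overlap. All 223 had a gene on the opposite strand in the Ensembl annotation, and for 195 of them at least 1 such gene was listed with values, which gave 224 pairs with 216 genes, 218 of the pairs with a protein-coding gene. Pairs were counted from each antisense RNA, so the 1 pair of antisense RNAs that overlap each other, asRNA:CR45827 and asRNA:CR45828, is in the counts from both sides, and 223 pairs are distinct. By the loci written in the deposited table, 201 antisense RNAs overlapped another listed gene. In 116 pairs the antisense RNA lay inside the gene, and in 16 the gene lay inside the antisense RNA. Another 58 pairs overlapped head to head, with both 5' ends in the overlap, and 34 tail to tail, with both 3' ends in it. Such an overlap could reach over most of the gene. Exons overlapped in 222 of the pairs, by a median of 428 bases, and a median of 53.6% of the exonic bases of the antisense RNA lay in exons of the gene. The exonic length had a median of 936 bases and ran from 223 to 7418, and 104 antisense RNAs had a single exon block.

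The antisense RNAs were spread over the chromosomes in other shares than all listed genes, and these shares were not tested. On 2R lay 66 of them (29.6%, beside 20.9% of listed genes), and on chromosome 4 lay 9 (4.04%, beside 0.702%). On X lay 24 (10.8%, beside 15.5%). The median log2(FPKM + 1) difference per chromosome ran from -0.070 on 2L to 0.12 on X, and the 3 rises lay on X, 2R and 3R.

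Antisense RNA and opposite-strand gene were listed in the same direction in 144 of the 224 pairs (64.3%), 78 higher and 66 lower in hsromega66, or in 143 of the 223 distinct pairs. For opposite-strand overlapping pairs of other listed genes the share was 53.7% of 2247, and 56.1% of the 212 pairs whose exons overlapped by at least 25% of the shorter gene. The correlation of the log2(FPKM + 1) differences over the 224 pairs was 0.68 (Pearson) and 0.46 (Spearman), given as a description without a test. Without asRNA:CR45629 and CG15308, Pearson's value was 0.49 and Spearman's 0.45. Pairs come from the same libraries, some share a member, and reads may be shared within a pair, so they are not independent, and the difference from other overlapping genes was not tested.

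The likeness differed with the arrangement. The Spearman correlation was 0.54 over the 116 pairs with the antisense RNA inside the gene, 0.26 over 58 head-to-head pairs and 0.27 over 34 tail-to-tail pairs. Directions were the same in 80, 34 and 17 of these pairs. For the 16 pairs with the gene inside the antisense RNA it was 0.81, with 13 in the same direction. Pairs were also split by the share of the antisense RNA's exonic bases in exons of the gene. The same-direction share was 64.2% under 25%, 63.8% from 25% to under 75%, and 65.2% at 75% or more. Spearman correlations in these classes were 0.44, 0.44 and 0.55. The groups are of unequal size and the differences between them were not tested.

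Where the antisense RNA of a pair differed by 0.5 or more on the log2(FPKM + 1) scale, 39 of 50 pairs ran in the same direction and 11 in opposite directions. Where both genes differed by that much, 12 of 13 pairs ran in the same direction, 8 higher and 4 lower in hsromega66. Shares under these rules were not computed for other overlapping genes. Beside those named above, the 12 included asRNA:CR44891 (13.1 and 8.0 FPKM) inside svr (silver), a carboxypeptidase D gene listed at 50.8 and 31.1 FPKM. They also included asRNA:CR45604 (2.54 and 5.68 FPKM), which spans 3 genes. Of these only Vago, which encodes a secreted peptide induced by virus infection through Dicer-2, was higher in hsromega66 (9.55 and 21.5 FPKM), while CG2061 (12.6 and 12.7 FPKM) and CG2076 (39.5 and 38.8 FPKM) differed little. The exception was asRNA:CR45621, which overlaps most of the span of Fpgs, a folylpolyglutamate synthase gene. The antisense RNA was listed at 0.746 and 0.220 FPKM and Fpgs at 2.098 and 6.83 FPKM (q = 0.0935 by the authors' deposited table). None of the genes named in this paragraph passed the threshold, and they were chosen after their values were seen.

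**Figure D4:**
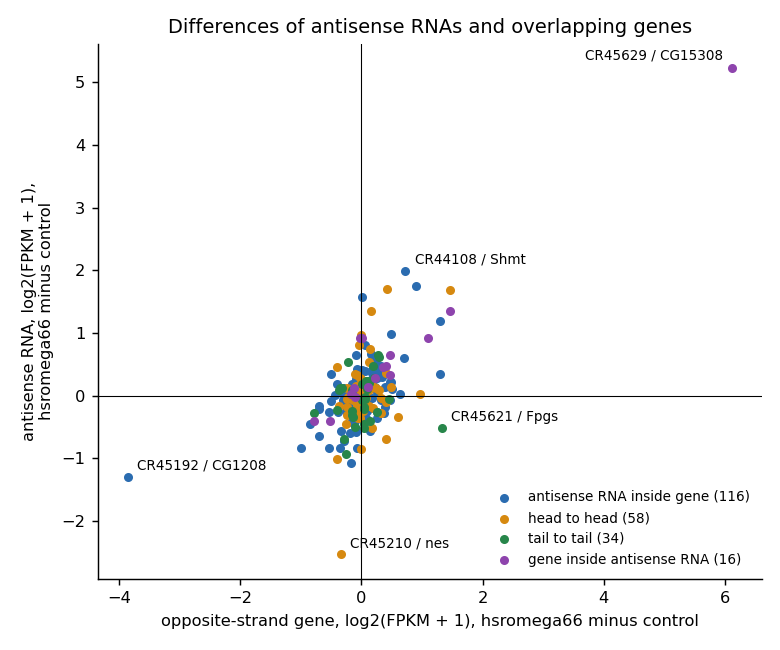
Difference in log2(FPKM + 1), hsromega66 minus control, of the opposite-strand gene (x axis) and of the antisense RNA (y axis), 1 point for each of 224 pairs, coloured by arrangement. Most points lie near the origin, asRNA:CR45629 with CG15308 stands alone at the top right (6.12 and 5.22), and Fpgs lies to the right of its antisense RNA's negative value.

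The level of an antisense RNA relative to the gene it overlaps went with the extent of the overlap. Over all pairs the antisense RNA had a median of 0.341 times the FPKM of the gene, both genotypes summed, and it exceeded the gene in both genotypes in 56 of 224 pairs (25%). Where under 25% of its exonic bases lay in exons of the gene, the median was 0.157 times and the antisense RNA exceeded the gene in both genotypes in 3 of 53 pairs. Where 75% or more lay in exons of the gene, the median was 1.18 times and it did so in 36 of 66 pairs. The rank correlation of the listed levels of antisense RNA and gene in control was 0.46 in the latter class. It was 0.093 in the class of 25% to under 75%, but 0.42 in the class under 25%. The same division was seen in hsromega66, with 0.47, 0.065 and 0.37.

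Some antisense RNAs other than asRNA:CR11538 exceeded their gene many times over. The largest ratio, 73.5, was that of asRNA:CR45275 (39.0 and 37.0 FPKM) to CG14483 (0.271 and 0.763 FPKM). For asRNA:CR43787 (25.9 and 28.2 FPKM), which contains the span of the cytochrome P450 gene Cyp9c1 (1.57 and 1.36 FPKM), it was 18.5. For asRNA:CR46135 (9.96 and 10.1 FPKM) and Atu (0.790 and 0.587 FPKM) it was 14.6. The RNA asRNA:CR45142, which overlaps nearly the whole span of Spt-I, stood at 11.2 and 12.3 FPKM. Spt-I, which encodes a subunit of serine palmitoyltransferase, stood at 2.13 and 1.45 FPKM. These pairs were chosen among the high ratios after the values were seen and are not the full ranking. Pairs passed over include asRNA:CR45952 with CG11309 (22.4) and asRNA:CR45806 with CG7049 (11.6). In each of them 75% or more of the exonic bases of the antisense RNA lay in exons of the gene, but such an overlap did not go with every high ratio. For asRNA:CR45281 (5.502 and 8.01 FPKM) and CG1809 (0.753 and 1.32 FPKM) the ratio was 6.51 with 28.4% of the bases in exons of the gene. Whether the division of reads between strands moved these levels was not tested.

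**Figure D5:**
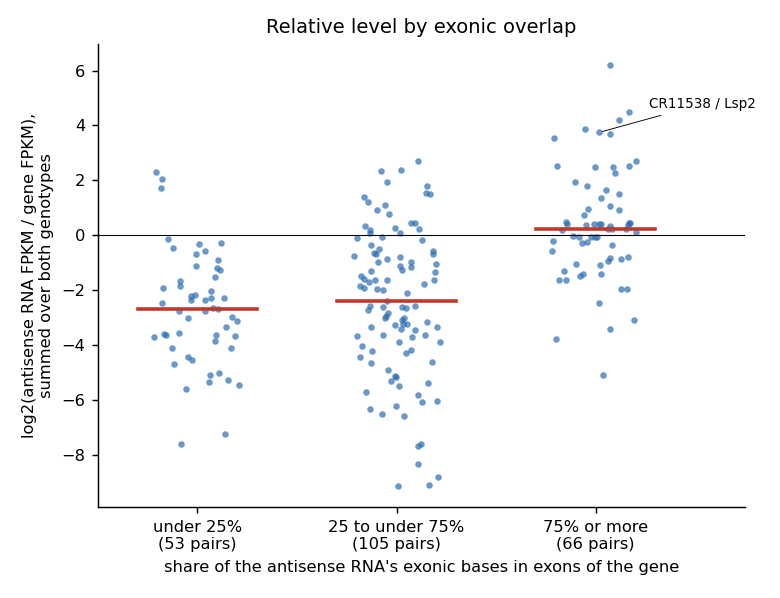
Log2 of the level of the antisense RNA over that of its opposite-strand gene (FPKM summed over both genotypes, y axis) by the share of the antisense RNA's exonic bases that lie in exons of the gene (x axis), 1 point per pair, with red lines at the medians. The medians correspond to 0.157, 0.191 and 1.18 times the gene, and most points of the last class lie around or above 0.

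Of 11 listed genes of double-stranded RNA and small RNA pathways, none passed the threshold of the authors' Cuffdiff comparison. At an unadjusted Cuffdiff p of 0.05 the count was also 0. With 1.4% and 0.908% of all listed genes called by q, and 4.67% and 3.2% by p, a count of 0 among so few genes does not set them apart. Dcr-2 (Dicer-2) stood at 36.1 and 30.0 FPKM and AGO2 (Argonaute 2) at 92.0 and 99.8 FPKM. The largest difference was in r2d2, the partner protein of Dicer-2, at 26.7 and 17.8 FPKM. Trax, a subunit of the nuclease C3PO that helps to activate the silencing complex, stood at 21.8 and 15.2 FPKM with the lowest p, 0.0599, by the authors' deposited table. Adar was listed at 15.3 and 13.3 FPKM, and 4 of the 11 genes lay above 0, with a median log2(FPKM + 1) difference of -0.19.

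Beyond the 223, 7 genes listed under other symbols carry the asRNA: prefix in the newer Ensembl annotation. All 7 had q = 0.998 by the authors' deposited table. The largest difference was that of lncRNA:CR44811, now named asRNA:bsAS, at 1.47 and 0.241 FPKM.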

How the data were processed

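Members and lists were chosen with earlier results of these data known. The submitters' processing notes name the tools Cuffdiff 2.1.1, Cufflinks, TopHat and Bowtie, and the build dm6. What the authors deposited, per the file headers, is for each transcript a pooled FPKM per genotype (2 libraries each), a log2 fold change, a p-value and a q-value. At the lowest deposited p-value, 5e-05, stood 197 transcripts. The depth behind the FPKM is unknown. Nothing in the labels says that libraries came from separate cultures, so p-values may cover technical spread only.

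FPKM was summed per gene, and differences are log2(FPKM + 1) of hsromega66 minus control, a scale on which changes of low genes are understated. Genes were called where a transcript had a deposited q-value of at most 0.05. Genes were matched to the Ensembl 115 annotation, in dm6 coordinates, by ID (12037 of 12116) or by symbol or synonym (74). Pairs needed 1 overlapping base on opposite strands. Sequences were not used here.

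Antisense RNAs named by rule were the called ones, the 10 largest differences up and down (at least 1 FPKM in 1 genotype), the 10 most abundant, those within 100 kb of Hsromega, any listed at 0 in 1 genotype (no gene was) and those opposite a called gene. Other names are marked as chosen after values were seen, including the transcripts, abundance pairs and renamed gene. Alternatives were the pseudocount, FPKM and q thresholds, centring, the transcript used and the overlap. The code for calls and overlaps was checked on made-up values with known answers, which does not test the deposited calls themselves. Python 3.11.15, numpy 2.4.6, pandas 2.3.3 and matplotlib 3.10.9 were used.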

Additional observations from a re-analysis of the deposited data

How the results depend on the processing

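The counts of 3 rises and 0 falls stayed within 1.5 times at q of at most 0.01 (2 rises) and 0.1, with an FPKM minimum and with a minimum difference. With an unadjusted p they were 7 and 3, beside 566 and 388 over all genes, where q gave 170 and 110. The median difference was -0.021, and it was -0.029 with a pseudocount of 0.1 and -0.0080 when centred on all genes. It was 0.015 with at least 1 FPKM and 0.095 with at least 5 FPKM in 1 genotype, so its sign depends on the low antisense RNAs. The 28 antisense RNAs named by rule kept their sign under another pseudocount, transcript or centring. Over pairs, Pearson's and Spearman's correlations were 0.68 and 0.46. They were 0.58 and 0.43 with a pseudocount of 0.1, 0.71 and 0.50 with both genes at 1 FPKM or more, 0.70 and 0.48 with 100 shared exonic bases, and 0.69 and 0.47 with 1 pair per antisense RNA. In alternatives chosen after seeing the data they were 0.49 and 0.45 without asRNA:CR45629, and 0.44 and 0.43 without pairs that hold a called gene. No paired analysis was possible because the columns are pooled and carry no replicate, and no replicate could be left out.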
